A study of Rattus norvegicus with 21 samples.

Results

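Cholesterol synthesis, uptake and sterol regulation were followed through 36 genes, taken by gene symbol from the platform annotation in the order of the pathway, from the thiolases that join acetyl-CoA units to the transporters that carry cholesterol out of the cell. Of these, 34 had a probe set with a single symbol and were analysed, among 14506 genes and 29214 probe sets on the array. Srebf1 shares its probe set with Pemt and, like Lrp8, was not analysed here. Values were on the log2 scale, so that a difference of 1 is a 2-fold change, and all 34 genes had a group mean of at least 6 on this scale.

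The study set 16 dissected pituitary lesions of MENX rats against 5 normal pituitaries, each on its own Affymetrix Rat Gene 1.0 ST array. The paper describes the dissection both as microdissection and as macrodissection. The MENX rats were homozygous for a mutation of Cdkn1b (spelled Cdknb1 in the labels), the gene of the cell cycle inhibitor p27, and were 7 to 12 months old. The wild-type rats were all 6 months old, and both groups had the mixed background Sprague–Dawley white eye/Wistar–Kyoto. Genotype and tumor therefore cannot be told apart from age. The mutation is carried by the whole animal, and the adenomas, which are multifocal and mainly of gonadotroph origin, arise in the anterior lobe. The lesions bore 9 sample numbers, read here as rats (6 female and 3 male), and lesions of 1 number were averaged, which gave adenomas 1 to 9. The paper counts more rats and gives a narrower range of ages than the labels, so the reading of numbers as rats and the ages used here rest on the labels alone. The wild-type pituitaries are numbered 1 to 5, with 1 and 5 from females and 2, 3 and 4 from males. Cdkn1b mRNA (10859254) averaged 9.23 ± 0.17 in adenomas and 8.91 ± 0.19 in wild-type pituitaries (SD, n = 9 and 5). The difference of 0.33 was called higher by limma, the test described below (adjusted p = 0.0324), and lost this call under 12 of 31 alternative settings. As the mutation acts on the stability of the protein, the mRNA level does not check the labels.

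Cells make cholesterol from acetyl-CoA through mevalonate, farnesyl diphosphate, squalene and lanosterol, and a last set of enzymes trims and reduces lanosterol to cholesterol. When membrane sterol falls, SCAP escorts the transcription factor SREBP-2 (encoded by Srebf2) to the Golgi for activation, and SREBP-2 switches on most genes of synthesis and uptake; when sterol is plentiful, the INSIG proteins hold SCAP in the endoplasmic reticulum, and liver X receptors, activated by oxysterols, turn on export. Steroid-producing glands depend on this supply, since scavenger receptor BI (Scarb1) brings in cholesterol esters from high-density lipoprotein and the side-chain cleavage enzyme P450scc (Cyp11a1) converts cholesterol to pregnenolone.

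Promoter windows of the genes on which the results turn are shown first, because sterol control acts through such windows, where SREBP-2 binds together with NF-Y and Sp1. The windows run from 250 bases before to 50 bases after the annotated start, are read 5′ to 3′ along the gene and come from RefSeq on GRCr8, and an entry was matched for 29 of the 34 genes. Capitals mark a CCAAT box (the NF-Y element, or ATTGG on the opposite strand), GGGCGG (an Sp1 element, or CCGCCC on the opposite strand) and TCACNCCA (a shortened SREBP element). The Dhcr7 window (chr1:208444184-208444483, plus strand) belongs to the enzyme with the largest rise, the Srebf2 window (chr7:115543057-115543356, plus strand) to the one gene called lower, and those of Msmo1 (chr16:29746863-29747162, plus strand) and Nsdhl (chrX:155817110-155817409, plus strand) to 2 enzymes of the same branch as Dhcr7 that were not called.
Dhcr7 promoter: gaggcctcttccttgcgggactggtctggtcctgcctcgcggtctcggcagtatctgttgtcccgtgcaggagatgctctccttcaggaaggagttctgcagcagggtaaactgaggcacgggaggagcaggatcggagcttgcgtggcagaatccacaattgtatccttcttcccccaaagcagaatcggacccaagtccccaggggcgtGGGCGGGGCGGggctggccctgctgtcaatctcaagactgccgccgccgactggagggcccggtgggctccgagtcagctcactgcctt
Srebf2 promoter: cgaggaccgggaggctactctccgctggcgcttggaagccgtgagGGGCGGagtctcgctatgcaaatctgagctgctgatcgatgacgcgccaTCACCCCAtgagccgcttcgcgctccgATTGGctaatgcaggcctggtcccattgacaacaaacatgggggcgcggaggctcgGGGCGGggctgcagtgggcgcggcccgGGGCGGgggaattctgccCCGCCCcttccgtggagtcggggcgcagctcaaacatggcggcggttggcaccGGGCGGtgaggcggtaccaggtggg
Msmo1 promoter: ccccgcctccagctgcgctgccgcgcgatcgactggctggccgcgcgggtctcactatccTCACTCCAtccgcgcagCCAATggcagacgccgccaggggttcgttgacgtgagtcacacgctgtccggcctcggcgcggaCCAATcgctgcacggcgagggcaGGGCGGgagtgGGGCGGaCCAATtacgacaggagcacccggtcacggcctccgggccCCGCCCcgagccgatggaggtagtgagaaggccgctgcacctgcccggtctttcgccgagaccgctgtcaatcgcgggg
Nsdhl promoter: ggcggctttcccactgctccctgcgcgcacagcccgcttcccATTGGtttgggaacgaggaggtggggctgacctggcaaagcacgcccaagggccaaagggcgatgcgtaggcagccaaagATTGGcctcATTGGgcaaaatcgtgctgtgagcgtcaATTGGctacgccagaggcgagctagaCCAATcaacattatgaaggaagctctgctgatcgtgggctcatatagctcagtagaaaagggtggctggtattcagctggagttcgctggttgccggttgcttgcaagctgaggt
The Dhcr7 window held 2 overlapping GGGCGG runs, 39 and 34 bases before the start, and no CCAAT box. This was not particular to Dhcr7. The windows of Cyp51, of the same branch and not called, and of Acat2, called higher, also held 2 GGGCGG elements and no CCAAT box (not shown). The Srebf2 window held 1 CCAAT box, 5 GGGCGG elements and the shortened SREBP element 156 bases before the start, the Msmo1 window 3 CCAAT boxes, 3 GGGCGG elements and the shortened element 190 bases before the start, and the Nsdhl window 5 CCAAT boxes with no GGGCGG.

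Over the 29 matched windows, on both strands, CCAAT occurred in 18, against 37.5% of all 33469 rat promoter windows of this length, and in 12 of the 15 matched windows of synthesis enzymes. GGGCGG occurred in 23 windows, 13 of them of synthesis enzymes, against 33.1% of all windows. The SREBP element TCACNCCAC was in 0 of the 29 windows and in 1.12% of all windows. Its shortened form TCACNCCA, searched after the longer form gave no match, was in the Srebf2 and Msmo1 windows alone among the 29, against 3.89% of all. The E-box CACGTG, which SREBP proteins can also bind, was in 4 windows, against 6.42% of all, and the SF-1 element CAAGGTCA was in 0, against 1.52% of all. These matches describe letters and were not tested as binding sites.

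A single lesion stood apart in this pathway and is described before the comparison. It was 1 of the 3 lesions of adenoma 3, the one that the titles label replicate 5. For 14 of the 18 synthesis enzymes it had the highest value of all 16 lesions, while over all probe sets it was the highest in 13.6%. Fdft1 was at 9.73 in this lesion, at 7.75 and 7.95 in the other 2 lesions of the rat, and between 7.62 and 8.26 in the other 15 lesions. Cyp51 was at 10.53, against 8.59 to 8.87 in the other 2 lesions, and Insig1 at 10.67, against 8.68 to 8.76. Over the 18 enzymes the median difference between this lesion and the mean of its 2 companions was 1.33, against 0.01 over all probe sets. Not every step was higher in it: Acat1 (difference 0.07), Pmvk (−0.08) and Sc5d (0.25) differed little, and Abcg1 (−0.60) and Npc1 (−0.62) were lower in it. Scarb1 was at 12.18 in this lesion, against 11.04 and 11.22 in its companions, and Cyp11a1 at 12.85, against 9.09 and 9.31. Across all probe sets its median correlation with the other lesions was 0.972, below those of the other 15 lesions (0.977 to 0.985). Its marker means were within the range of the other 15 lesions for macrophages (7.74, others 6.88 to 7.93), gonadotrophs (9.51, others 9.34 to 10.59) and endothelial cells (7.55, others 7.07 to 8.12) and below it for fibroblasts and pericytes (7.55, others 7.83 to 8.85). The part of these markers in the difference was not tested. With this lesion left out of adenoma 3, a setting chosen after seeing the data, the counts of called genes given next were again 8 higher and 1 lower.

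**Figure D1:**
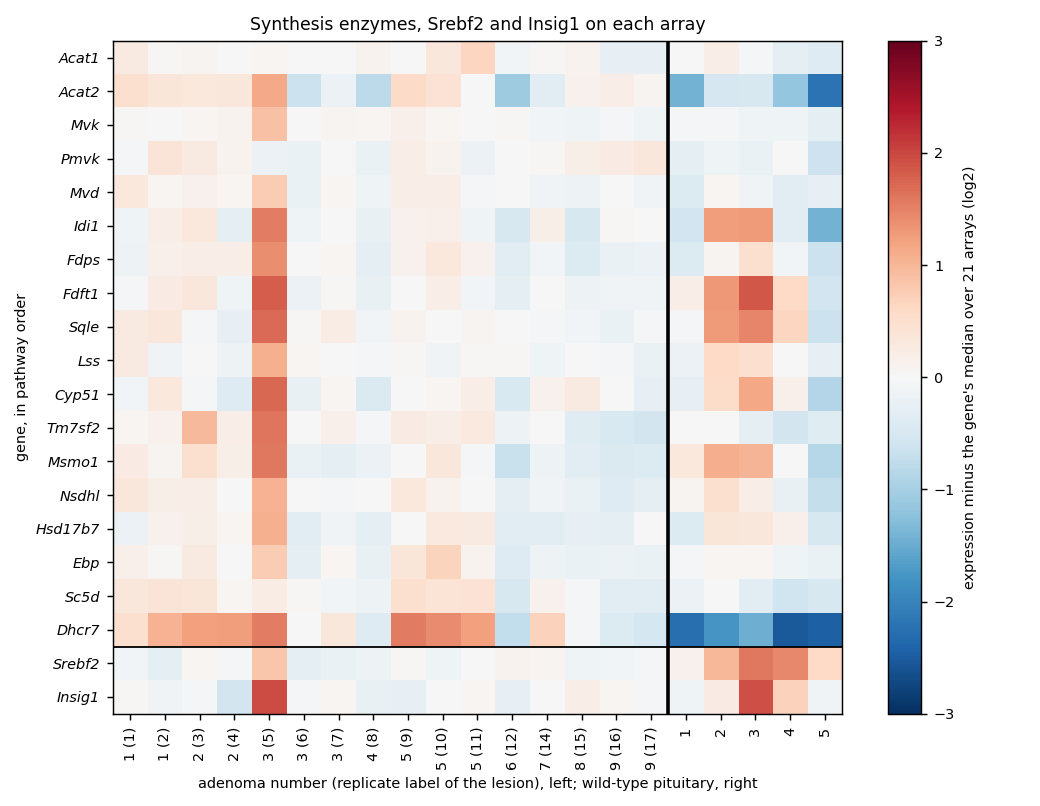
Expression of the 18 synthesis enzymes, Srebf2 and Insig1 on each of the 21 arrays, as log2 distance from the gene's median over all arrays (red above, blue below). The 16 lesions are on the left of the thick line, named by adenoma number with the replicate label in parentheses, and the 5 wild-type pituitaries are on the right; the column 3 (5) is the lesion of adenoma 3 with 14 of the 18 enzymes at their highest, and wild-type pituitaries 2 and 3 are above 1, 4 and 5 in many rows.

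Adenomas were compared with wild-type pituitaries by limma's moderated test, with Benjamini-Hochberg adjustment over all probe sets, and a gene was called at an adjusted p under 0.05. Of the 34 genes, 8 were called higher and 1 lower in adenomas, which is 26.5% of them, against 17.5% of all probe sets called (8.49% higher and 9.06% lower) and 21.7% of all named genes. The median difference was 0.15 over the 34 genes and −0.03 over all probe sets. The rises were Dhcr7, Acat2 and Pmvk among the enzymes, Stard3, Stard4 and Npc1 among the genes of sterol movement, and Abca1 and Abcg1 among the exporters, and the fall was Srebf2. With prefix 08 of the sample numbers alone the call of Dhcr7 held, and with prefix 09 alone those of Dhcr7, Stard3, Npc1, Abcg1 and Srebf2. With a fold over 2 as well, 2 were higher (Dhcr7 and Acat2), against 1.43% of all probe sets, and 0 were lower, against 1.05%. The 2 groups were fully separate for 3 genes, which is 8.82% of them, against 4.82% of all probe sets. Dhcr7 and Abcg1 had all adenomas above all wild-type pituitaries (2.66% of all probe sets) and Srebf2 had all of them below (2.16%).

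**Figure D2:**
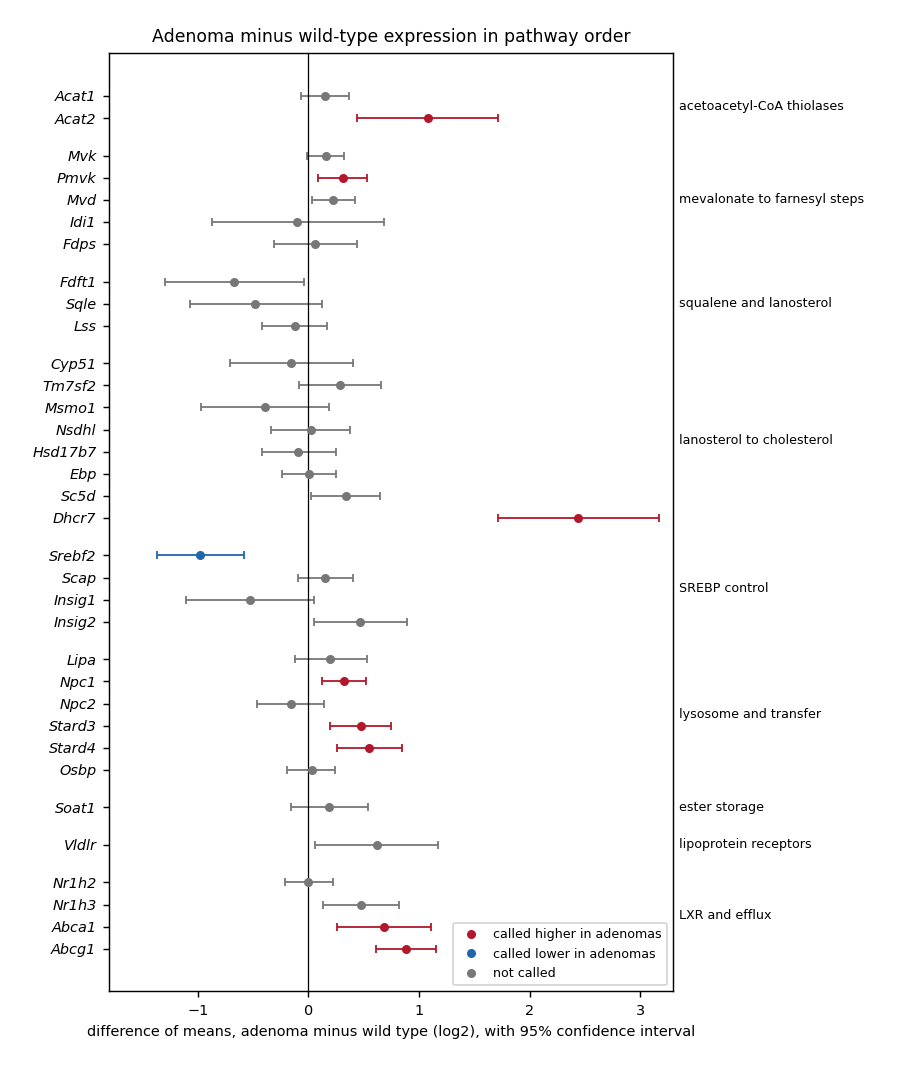
Difference of means between adenomas (n = 9) and wild-type pituitaries (n = 5) for the 34 genes in pathway order, on the log2 scale, with 95% confidence intervals from limma. Dhcr7 is the farthest to the right at 2.44 and Srebf2 the farthest to the left at −0.98; most enzymes between the thiolases and Dhcr7 have intervals that include 0.

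The pathway starts with the thiolases, which condense 2 acetyl-CoA molecules. Acat2 (10702945), the cytosolic thiolase that feeds sterol synthesis, ran from 7.68 to 9.17 in adenomas with a median of 8.86, against 7.32, 8.23, 8.26, 7.59 and 6.53 in wild-type pituitaries 1 to 5. Adenomas 4 and 6, from the 2 youngest mutant rats, were inside the wild-type range and the other 7 were above it. The difference was 1.08 (SE 0.30, a fold of 2.11, adjusted p = 0.0226 from limma), and it lost its call without wild-type pituitary 4 (adjusted p = 0.0532) or 5 (0.81, adjusted p = 0.0642). Acat1 (10917448), the mitochondrial thiolase of ketone body metabolism, averaged 9.79 ± 0.16 in adenomas and 9.64 ± 0.23 in wild-type pituitaries, with a difference of 0.15 (adjusted p = 0.326).

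Of the 5 enzymes from mevalonate to farnesyl diphosphate, 1 was called higher, and their median difference was 0.16. Pmvk (10816817), which adds the second phosphate to mevalonate, ran from 7.59 to 8.09 in adenomas with a median of 7.83, against 7.51, 7.65, 7.58, 7.79 and 7.18 in wild-type pituitaries. Adenoma values were above all wild-type values in 6 of 9 adenomas. The difference was 0.31 (SE 0.10, adjusted p = 0.0472 from limma), and this call was lost without any 1 of 7 of the adenomas or of wild-type pituitaries 1, 3 and 5 (differences of 0.22 to 0.32). Mvk (10940535), which adds the first phosphate, had a difference of 0.16 (adjusted p = 0.175) and Mvd (10811560), which makes isopentenyl diphosphate, one of 0.22 (adjusted p = 0.0972). Mvd was called with sex as a covariate (0.28, adjusted p = 0.0302) and without wild-type pituitary 2 (0.29, adjusted p = 0.0332).

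Idi1 (10799241), the isomerase that makes dimethylallyl diphosphate, showed how unevenly the wild-type pituitaries were spread. It ran from 7.17 to 8.13 in adenomas with a median of 7.68, against 7.09, 8.92, 8.94, 7.35 and 6.25 in wild-type pituitaries 1 to 5. All 9 adenomas lay between the lowest and the highest wild-type value, and the difference of −0.10 had a 95% interval from −0.87 to 0.68. Fdps (10940465), the farnesyl diphosphate synthase, had a narrower spread and a difference of 0.06 (95% interval −0.31 to 0.44).

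The 3 genes that make squalene and close it to lanosterol had differences below 0, with a median of −0.48, and limma called none of them, while 1 had an unadjusted p under 0.05. Fdft1 (10784454), squalene synthase, ran from 7.62 to 8.48 in adenomas with a median of 7.92, against 8.12, 9.21, 9.78, 8.51 and 7.34 in wild-type pituitaries. Every adenoma lay inside the wild-type range, since wild-type pituitary 5 was below them all and 2, 3 and 4 were above them all. The difference was −0.67 (SE 0.29, adjusted p = 0.127 from limma). Sqle (10896772), squalene epoxidase, had a difference of −0.48 (adjusted p = 0.251), with adenoma values of 8.22 to 9.02 inside the range of the wild-type values of 8.30, 9.64, 9.83, 9.01 and 7.73. Without wild-type pituitary 5 both were called lower, Fdft1 with a difference of −0.99 (adjusted p = 0.0141) and Sqle with −0.77 (adjusted p = 0.0387). Lss (10832378), lanosterol synthase, had a difference of −0.12 (adjusted p = 0.568). The methods' t-test called none of the 3 with equal or unequal variances.

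Of the 8 enzymes from lanosterol to cholesterol, Dhcr7 was called higher and the other 7 were not called, with a median over the 8 of 0.02. Dhcr7 (10712560) is the reductase of the last step, from 7-dehydrocholesterol to cholesterol. It ran from 8.48 to 10.62 in adenomas with a median of 9.85, against 6.96, 7.44, 7.76, 6.69 and 6.77 in wild-type pituitaries. All 9 adenomas were above all 5 wild-type pituitaries, and the lowest adenoma, number 6, was still 0.71 above the highest wild-type value. The difference was 2.44 (SE 0.34, a fold of 5.43, adjusted p = 0.000388 from limma). It was called without each sample in turn and within each prefix of the sample numbers (2.75 for 08 and 2.01 for 09), and lost its call only with the adenomas of 7 or 8 months alone, of which there are 2 (1.54, adjusted p = 0.0868). In bulk tissue a change in the share of a cell type and a change in RNA per cell cannot be told apart, for this gene as for those that follow.

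The enzymes beside Dhcr7 did not share this size of difference. Cyp51 (10853471), the lanosterol demethylase, had a difference of −0.16 (95% interval −0.71 to 0.40), and Msmo1 (10787841), the methyl sterol oxidase, one of −0.39 (−0.97 to 0.19). Nsdhl (10935845), Hsd17b7 (10769680) and Ebp (10932410), which remove the methyl groups at carbon 4 and shift the double bond of the ring, had differences of 0.02, −0.09 and 0.01. The upper bounds of their 95% intervals were 0.38, 0.25 and 0.25, all below the lower bound of 1.71 for Dhcr7. Tm7sf2 (10728123), a sterol reductase, had a difference of 0.29 (adjusted p = 0.265). Sc5d (10916534), the desaturase just before Dhcr7, had one of 0.34 (adjusted p = 0.126), with 5 of 9 adenomas above all wild-type values.

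The spread among the wild-type pituitaries had a common order in the synthesis enzymes. Wild-type pituitaries 2 and 3, both male, were the 2 highest of the 5 in 13 of the 18 enzymes, against 8.95% of all probe sets. Wild-type pituitary 5, a female, was the lowest in 14 of 18, against 19.1% of all probe sets. All 3 males were above both females in 9 of 18 enzymes, against 10.9% of all probe sets. The SD of the 9 adenomas was below that of the wild-type pituitaries in 13 of 18 enzymes, about the share of all probe sets (71.5%). These pituitaries were chosen from the plot of single arrays after their values were seen, so the counts are descriptions. Idi1, Fdft1 and Sqle had SDs of 0.30, 0.25 and 0.26 in adenomas, against 1.19, 0.95 and 0.89 in wild-type pituitaries.

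The SREBP control genes did not move together. Srebf2 (10898091), the gene of SREBP-2, ran from 7.79 to 8.08 in adenomas with a median of 7.93, against 8.09, 8.97, 9.56, 9.41 and 8.57 in wild-type pituitaries. Every adenoma was below every wild-type pituitary, although the gap between adenoma 3 and wild-type pituitary 1 rounded to 0.00. The difference was −0.98 (SE 0.18, lower by a fold of 1.97, adjusted p = 0.00257 from limma), and it was called without each sample in turn. The single lesion of adenoma 3 described above was at 8.81, above wild-type pituitaries 1 and 5, and without it the difference was −1.02 (adjusted p = 0.00194). The call was lost with the methods' t-test with unequal variances (adjusted p = 0.117), the replicate number as a block (−0.85, adjusted p = 0.0722), prefix 08 alone (−0.61, adjusted p = 0.178) and the 2 adenomas of 7 or 8 months alone (adjusted p = 0.505). The replicate block uses single lesions and compares the groups through labels 1 to 5 only, among them that lesion of adenoma 3.

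Scap (10913640), the escort protein of SREBP-2, had a difference of 0.15 (adjusted p = 0.387). Insig1 (10859880), which retains SCAP and is itself a target of SREBP, ran from 8.41 to 9.37 in adenomas with a median of 8.67, against 8.59, 8.96, 10.64, 9.40 and 8.61 in wild-type pituitaries. Wild-type pituitary 3 was far above the rest, and the difference of −0.53 was not called (SE 0.27, adjusted p = 0.193). Insig2 (10767175), the family member that SREBP does not induce, had a difference of 0.47 (adjusted p = 0.114). It was called without wild-type pituitary 2 (0.60, adjusted p = 0.0435). It was also called with the replicate number as a block, a fit that keeps lesions as separate samples. Of the other 4 such fits, 3 called it (0.49, adjusted p = 0.0402 with the sample number as a random block). The methods' t-test with unequal variances did not.

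Genes that release cholesterol from lysosomes and move it between membranes had 3 of 6 called higher, against 8.49% of all probe sets and 12.1% of all named genes, with a median difference of 0.26. Stard4 (10803681), a cytosolic sterol carrier, ran from 6.92 to 7.78 in adenomas with a median of 7.36, against 6.55, 7.05, 7.07, 6.76 and 6.63 in wild-type pituitaries. Adenoma 9 alone fell within the wild-type range. The difference was 0.55 (SE 0.14, adjusted p = 0.0134 from limma), it was called without each sample in turn, and it was 0.73 and 0.34 within prefixes 08 and 09, where it was not called. Stard3 (10737957), a sterol carrier of the late endosome, ran from 7.98 to 8.56 in adenomas with a median of 8.23, against 8.09, 8.16, 7.70, 7.66 and 7.44 in wild-type pituitaries. Adenomas were above all wild-type values in 6 of 9, with a difference of 0.48 (SE 0.13, adjusted p = 0.0203 from limma), and the call was lost without wild-type pituitary 3, 4 or 5 (0.38 to 0.45).

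Npc1 (10803238), the lysosomal membrane protein through which freed cholesterol leaves, ran from 7.80 to 8.33 in adenomas with a median of 7.96, against 7.90, 7.66, 7.68, 7.41 and 7.70 in wild-type pituitaries. The difference was small, 0.32 (SE 0.09, adjusted p = 0.0281 from limma), with 7 of 9 adenomas above all wild-type values. It was 0.12 within prefix 08 and 0.51 within prefix 09, and the call was lost without wild-type pituitary 3 (adjusted p = 0.0554) or 4 (0.26, adjusted p = 0.0913). Its soluble partner Npc2 (10891160) had a difference of −0.16 (adjusted p = 0.464), and Lipa (10729780), the lysosomal acid lipase, one of 0.20 (adjusted p = 0.384). Osbp (10714080), which exchanges cholesterol for a phosphoinositide at the Golgi, had a difference of 0.03 (95% interval −0.19 to 0.24). Soat1 (10768979), which esterifies cholesterol for storage in droplets, had a difference of 0.19 (adjusted p = 0.453). Vldlr (10714576), a lipoprotein receptor, ran from 8.06 to 9.77 in adenomas with a median of 8.91, against 7.92, 8.81, 8.59, 8.46 and 7.79 in wild-type pituitaries. Of the 9 adenomas, 6 were above all wild-type values, and the difference of 0.62 was not called (SE 0.26, adjusted p = 0.113). It was called without adenoma 4 (0.73, adjusted p = 0.0496) and with the replicate number as a block, a fit that keeps lesions apart. Of the other 4 such fits, 3 called it (0.63, adjusted p = 0.0393 with the sample number as a random block). The methods' t-test with unequal variances did not.

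All 4 genes of the liver X receptors and export had differences of 0.00 or more, and both transporters were called higher. Abcg1 (10829082), which exports cholesterol to lipoprotein particles and is a known target of these receptors, ran from 9.08 to 9.84 in adenomas with a median of 9.45, against 8.98, 8.48, 8.73, 8.24 and 8.43 in wild-type pituitaries. All 9 adenomas were above all 5 wild-type pituitaries, by 0.11 at the closest (adenoma 8). The difference was 0.88 (SE 0.13, a fold of 1.84, adjusted p = 0.000475 from limma), called without each sample in turn. It was 0.78 within prefix 08 (adjusted p = 0.0667) and 0.91 within prefix 09, where it was called, and 0.86 with the 2 adenomas of 7 or 8 months alone (adjusted p = 0.205).

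Abca1 (10876769), which loads cholesterol onto apolipoprotein A-I and is another target of the receptors, ran from 9.45 to 10.28 in adenomas with a median of 9.77, against 9.48, 9.16, 9.73, 9.13 and 8.48 in wild-type pituitaries. Adenomas 1, 4, 6 and 8 were within the wild-type range and the other 5 above it. The difference was 0.68 (SE 0.20, adjusted p = 0.0289 from limma), and the call was lost without adenoma 3 or 5 or wild-type pituitary 4 or 5 (0.50 to 0.66). Nr1h3 (10847351), the gene of LXR alpha, had a difference of 0.48 (SE 0.16, adjusted p = 0.0528), just above the threshold, and it was called under 10 of 31 alternatives, among them the filter on dim probe sets (adjusted p = 0.0403) and without wild-type pituitary 1 (0.61, adjusted p = 0.0116). Nr1h2 (10721421), that of LXR beta, had a difference of 0.00 (95% interval −0.21 to 0.22).

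**Figure D3:**
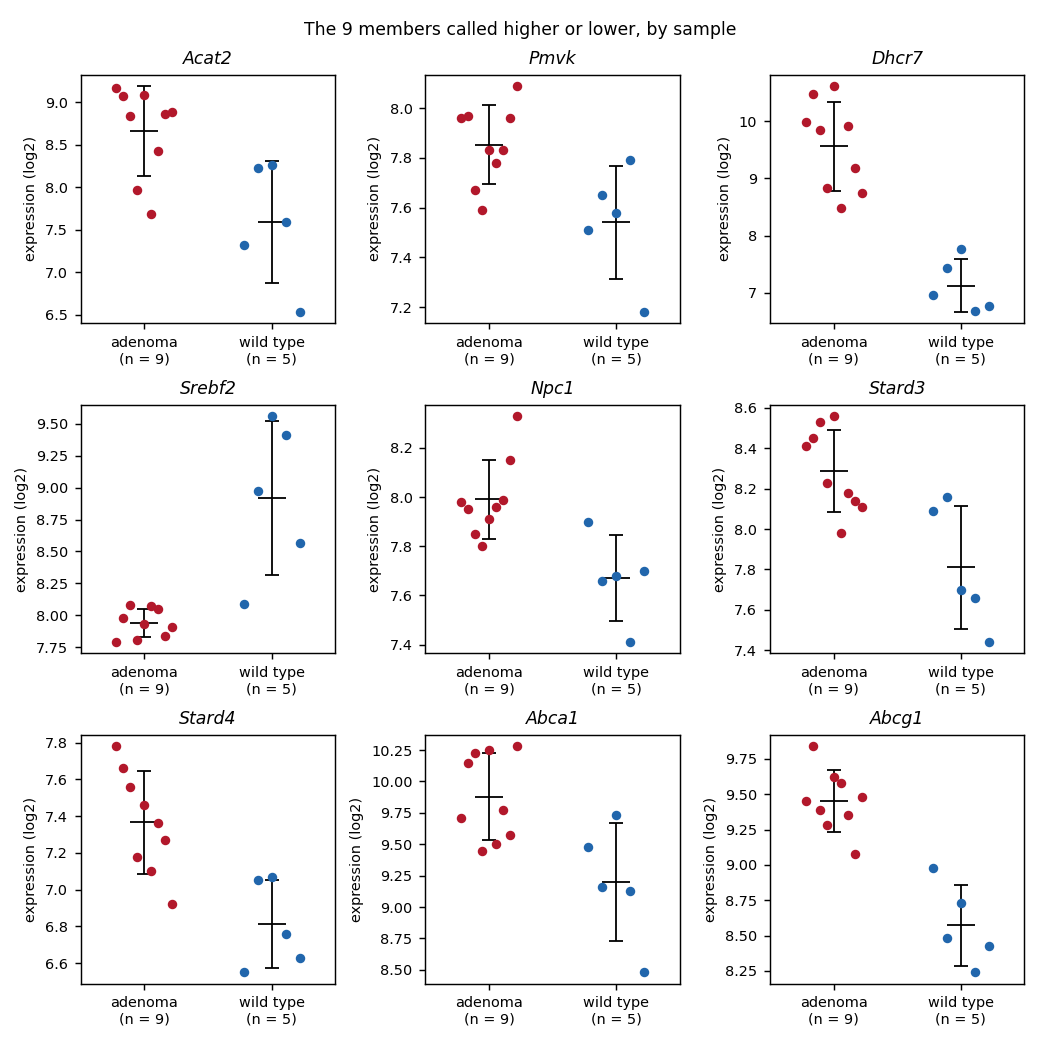
Expression (log2) of the 9 called genes in each adenoma (left, red, n = 9) and each wild-type pituitary (right, blue, n = 5), with the mean and SD in black; the vertical axes differ between panels and do not start at 0. Dhcr7 and Abcg1 have all adenomas above all wild-type pituitaries, Srebf2 has all adenomas below, and the other 6 overlap.

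Markers of other cells moved with the groups. Macrophages, which are known to express Abca1, Abcg1, Nr1h3, Lipa and Npc2 strongly, had 9 of their 14 markers called higher, with list means from 6.88 to 7.85 (median 7.58) in adenomas, against 6.31 to 6.92 (median 6.78) in wild-type pituitaries. Of the gonadotroph markers, 3 of 5 were called higher (Cga, Gnrhr and Nr0b1) and 2 lower (Lhb and Fshb), while 3 of 3 somatotroph markers and 4 of 5 markers of corticotrophs and melanotrophs were called lower. Lactotrophs had 1 of 4 markers called lower and thyrotrophs 1 of 3, and their other markers were not called. Fibroblast and pericyte markers had 4 of 6 and endothelial markers 3 of 7 called higher. Folliculostellate and stem cell markers had 4 of 6 called lower, with list means from 6.47 to 7.13 in adenomas, against 7.12 to 7.96 in wild-type pituitaries. Markers of the posterior lobe and glia had 3 of 5 called lower, with list means from 5.97 to 6.48 in adenomas, against 6.67 to 6.86 in wild-type pituitaries. Over the 9 adenomas Abca1 had r = 0.75 with the macrophage marker mean (Pearson's r, exact permutation p = 0.00279, adjusted p = 0.173) and Spearman's rho = 0.88 (adjusted p = 0.141), neither of which passed the adjustment, with r = 0.68 without adenomas 4 and 6, the 2 farthest from the median. For Abcg1 the r was 0.06 (exact permutation p = 0.876). Acat2 had the largest r, 0.87 (exact permutation p = 0.00441, adjusted p = 0.173), and r = 0.24 without adenomas 4 and 6. Nr1h3 had r = 0.46 and rho = 0.80, and Npc2 had r = 0.63 and rho = 0.67, none past the adjustment. Of the 34 genes, 29 had r above 0 with the macrophage marker mean, with a median r of 0.48. The share over all probe sets was not computed for this mean. Lipa had r = 0.72 (exact permutation p = 0.0246, adjusted p = 0.188) and rho = 0.95 (adjusted p = 0.036), the 1 relation that passed the adjustment, and r = 0.76 without adenomas 4 and 6. Without the lesion that stood apart, Lipa had rho = 0.90 and did not pass (adjusted p = 0.0937). Beyond these relations, the part of cell composition in the differences was not tested.

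Scarb1 and Cyp11a1 were taken as references for the use of cholesterol in steroid synthesis. Scarb1 (10758137) ran from 9.02 to 12.18 in adenomas with a median of 11.15, against 7.24, 7.91, 7.95, 7.72 and 7.19 in wild-type pituitaries. Its difference was 3.21 (SE 0.43, a fold of 9.23, adjusted p = 0.000283 from limma). Cyp11a1 (10910421) ran from 5.89 to 10.61 in adenomas with a median of 8.34, against 5.46, 5.20, 4.97, 5.33 and 5.47 in wild-type pituitaries. Its difference was 3.33 (SE 0.67, adjusted p = 0.00388 from limma). The wild-type values of Cyp11a1 were all below 6, near the level of the adrenal cortex markers given next, so no fold is given for it. Markers of the adrenal cortex, a tissue that also expresses both, had list means of 4.84 to 5.07 in adenomas and 4.67 to 5.03 in wild-type pituitaries over the 3 that were measured. These were Cyp21a1, Cyp17a1 and Mc2r. Cyp11b1 and Cyp11b2, adrenal enzymes that the paper reports as overexpressed in the adenomas, were not on the list. The list therefore does not show that adrenal genes in general were unchanged.

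Whether the genes followed the references from adenoma to adenoma was asked over the 9 adenomas only, since adenomas and wild-type pituitaries form separate clusters. With Scarb1, 28 of 34 genes had r above 0, with a median r of 0.60, and 15 had an exact permutation p under 0.05. Over all probe sets, 43.3% had r above 0, with a median r of −0.10, and 17.2% had an exact permutation p under 0.05. None of the 102 relations with the 3 references passed the Benjamini-Hochberg adjustment by Pearson's r (lowest adjusted p = 0.173). The genes shared their arrays, so the 28 are not independent. With Cyp11a1, 23 of 34 had r above 0, with a median r of 0.20, and 0 had an exact permutation p under 0.05, against 50.6% with r above 0 and 6.3% with such a p over all probe sets. The difference between the medians of the 2 references was not tested. Scarb1 and Cyp11a1 were themselves related with r = 0.46 (exact permutation p = 0.21).

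Dhcr7 had r = 0.82 and rho = 0.80 with Scarb1, which did not pass the adjustment (exact permutation p = 0.00929 and 0.0138, adjusted p = 0.188 and 0.141). Adenomas 1, 2, 3, 5 and 7 had Scarb1 above 11 and Dhcr7 from 9.85 to 10.62, and adenomas 4, 6, 8 and 9 had Scarb1 from 9.02 to 10.20 and Dhcr7 from 8.48 to 9.18. Without adenomas 4 and 8, the 2 farthest from the Scarb1 median, r was 0.95, and without the lesion that stood apart it was 0.81. Ebp (r = 0.83, exact permutation p = 0.00677) and Fdps (r = 0.82, exact permutation p = 0.00644) had adjusted p of 0.173 with Scarb1, and neither was called between the groups. Without the same lesion Fdps had r = 0.93 (exact permutation p = 0.000513, adjusted p = 0.0523). Osbp ran the other way (r = −0.70, exact permutation p = 0.0391, adjusted p = 0.21). Srebf2 (r = 0.27) and Insig1 (r = 0.05) had p of 0.473 and 0.907 in the exact permutation test. The 3 male adenomas (2, 3 and 5) are all among the 5 with the higher Scarb1 and all carry prefix 08, and with 5 adenomas of prefix 08 and 4 of prefix 09, fewer than 6 in each, no relation was computed within a prefix.

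**Figure D4:**
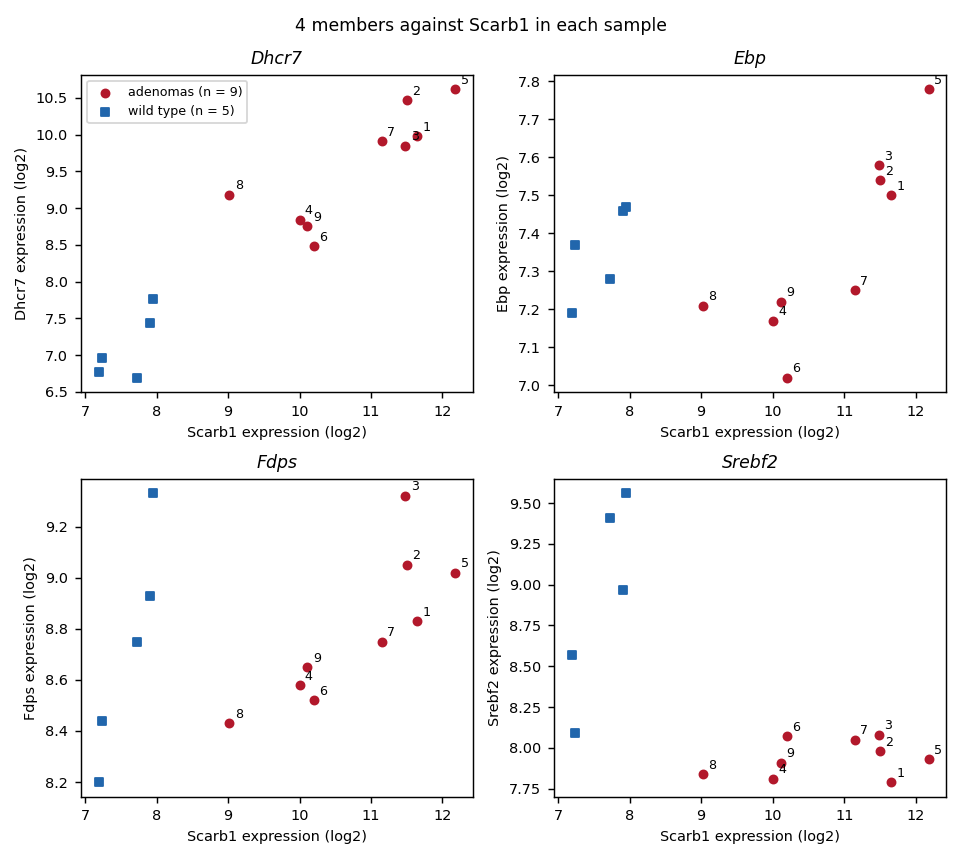
Dhcr7, Ebp, Fdps and Srebf2 (vertical axes) against Scarb1 (horizontal axis), all as log2 expression, in adenomas (red circles, numbered 1 to 9) and wild-type pituitaries (blue squares, n = 5). Among adenomas Dhcr7, Ebp and Fdps had r = 0.82, 0.83 and 0.82 with Scarb1 (adjusted p = 0.188, 0.173 and 0.173, none past the adjustment), and Srebf2 stays between 7.79 and 8.08.

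Sex, the prefix of the sample number and age were each tested over all probe sets. The interaction of adenoma and sex was called by limma for 0 of 34 genes and 0% of all probe sets, and had an unadjusted p under 0.05 for 7 of 34, against 6.78% of all probe sets. The 2 with the lowest p were Srebf2, with a difference of −0.42 in females and −1.31 in males (adjusted p = 0.354), and Sqle, with 0.34 in females and −0.94 in males (adjusted p = 0.393). Idi1 (0.83 and −0.57), Fdft1 (0.08 and −1.01), Cyp51 (0.48 and −0.49), Hsd17b7 (0.23 and −0.12) and Tm7sf2 (0.03 and 0.74) were the others, each with the female value first. These contrasts set 6 female and 3 male adenomas against 2 female and 3 male wild-type pituitaries, the same wild-type pituitaries whose order was described above. The interaction with the prefix was called for 0 of 34 genes, against 0.00342% of all probe sets, and had an unadjusted p under 0.05 for 1, Npc1, against 12.9% of all probe sets. The slope with age over the 9 adenomas was called for 0 of 34, against 0.00342% of all probe sets, and had an unadjusted p under 0.05 for 5 (Vldlr, Acat2, Npc2, Cyp51 and Pmvk, all with positive slopes), against 11.8% of all probe sets. The steepest was Vldlr with 0.26 per month (SE 0.05, adjusted p = 0.134), and Acat2 had 0.20 per month (adjusted p = 0.271).

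The spread among lesions of 1 sample number turned on the lesion that stood apart. With it, the SD within a sample number was smaller than the SD between the 9 adenoma values for 15 of the 34 genes, and without it for 28 of 34. The median SD within numbers, over the 5 numbers with more than 1 lesion, was 0.27 with this lesion and 0.12 without it, while the median SD between the 9 adenomas was 0.25 and 0.22. Dhcr7 varied less within numbers (SD 0.46, or 0.22 without the lesion) than between adenomas (0.78, or 0.77 without it). Srebf2 had an SD of 0.34 within numbers and 0.11 between adenomas, and without the lesion the order turned round, with 0.08 within and 0.12 between. The SD within numbers is one of single lesions. The SD between adenomas uses averaged lesions for the 5 numbers with more than 1, and single lesions for the other 4. These SDs are thus unlike measures, and their order is a description only.

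The wider pathway was followed in 43 measured genes of a list of 49. Of these, 7 were called higher and 4 lower, which is 25.6%, against 21.7% of all named genes and 17.5% of all probe sets, with a median difference of 0.08. This share is near that of all named genes, and the calls are given for the single genes. The rises were Gramd1a (1.55, adjusted p = 0.000135), a carrier of plasma membrane sterol to the endoplasmic reticulum, Nceh1 (1.11, adjusted p = 0.000779), a cholesterol ester hydrolase, Cyp27a1 (0.86, adjusted p = 0.015), the sterol 27-hydroxylase that makes an oxysterol ligand of the liver X receptors, Hsd3b7 (0.64), an enzyme of bile acid synthesis, Osbpl2 (0.33), a lipid transfer protein, Acly (0.80), which makes cytosolic acetyl-CoA, and Me1 (0.86), the malic enzyme that makes NADPH. The falls were Cyp7b1 (−0.68, adjusted p = 0.00352), which inactivates oxysterols, Abca5 (−0.56), Osbpl5 (−0.39) and Acaca (−0.56, adjusted p = 0.00958), the acetyl-CoA carboxylase of fatty acid synthesis. All 9 adenomas were above all wild-type pituitaries for Gramd1a, Nceh1 and Acly and below them for Acaca. None of 6 SREBP processing genes and none of 6 genes of the isoprenoid branches was called by limma, with median differences of −0.03 and 0.18. Of these genes, Fnta (0.32, unadjusted p = 0.0134 from limma) and Fntb (0.51, unadjusted p = 0.00957 from limma), the subunits of farnesyltransferase, had an unadjusted p under 0.05. Elsewhere in the wider list, Tspo (0.39, unadjusted p = 0.0137 from limma), Apoa1 (0.55, 0.0253) and Abca7 (0.26, 0.028) were likewise below 0.05 without being called.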

How the data were processed

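Total RNA was labelled and hybridised to Affymetrix Rat Gene 1.0 ST arrays. The authors ran RMA at the gene level in Affymetrix Expression Console, which subtracts background, brings the arrays to a common distribution by sketch quantiles and summarises probes by median polish. No program version was stated in the sources used here. The deposited log2 values ran from 2.01 to 14.09, with array medians from 6.36 to 6.53. A shift shared by most genes would be lost in the quantile step, and folds near background or saturation are understated. Arrays carry no read depth, so their number limits the precision. Scanner files were not used here.

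Of 29214 probe sets, 15310 carry 1 symbol, 323 several (not used) and 13581 none. For each gene the probe set with the highest mean over the 21 arrays was taken, and lesions of 1 sample number were averaged. limma 3.58.1 in R 4.3.3 compared the groups in a linear model for each probe set, without covariates, and P-values from the whole table were adjusted by Benjamini-Hochberg. Simulated data had 9 against 5 independent normal values, with the same SD in both groups and most probe sets unchanged. There limma recovered 86 of 100 genes changed by 1 and 100 of 100 changed by 2 on the log2 scale. False calls numbered 7 among 29214 probe sets. In the real data the wild-type SD was above the adenoma SD in 71.5% of all probe sets. The simulation therefore does not give the error rate of the calls made here. The text names every gene of the list, the called genes of the wider pathway (and those with a small unadjusted p, chosen after their values were seen), the 2 references and Cdkn1b. The members, the lists, the markers and the tests were chosen with earlier results of these data known. Relations across adenomas were tested by exact two-sided permutation of the 9 values (scipy 1.17.1) with adjustment over 102 relations.

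The alternatives were lesions as separate samples (random block, independent, and the methods' t-test with pooled or separate variances), a block for the number prefix, each prefix alone, a block for the replicate number, a term for sex, 7- and 8-month adenomas alone, a filter at a mean of 6, array centring, quantile normalization, a variance trend with robust fitting, array weights, other thresholds, the mean of a gene's probe sets, each sample left out in turn and, added after seeing the data, adenoma 3 without the lesion labelled 5. The block for the replicate number was fitted to single lesions. Promoter windows came from RefSeq (GRCr8).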

Additional observations from a re-analysis of the deposited data

Results flagged for a closer look

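In 4 of 74 checks 1 sample lay far from the rest of its group, where chance alone gives about 1 in 20. Adenoma 3 was the highest of the 9 adenomas for Mvk (8.07, others 7.60 to 7.82), Fdft1 (8.48, others 7.62 to 8.03) and Lss (9.09, others 8.57 to 8.79). This adenoma holds the lesion in which most synthesis enzymes were at their highest. Adenoma 8 was the lowest for Nr1h2 (7.37, others 7.68 to 7.96). No wild-type pituitary met the same criterion.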

How the results depend on the processing

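No called value changed sign under any alternative run. Against 8 genes higher and 1 lower, the methods' t-test with unequal variances gave 3 and 0, prefix 08 alone 1 and 0, prefix 09 alone 4 and 1, adenomas of 7 or 8 months alone (2 adenomas) 0 and 0, an adjusted p under 0.01 gave 2 and 1, and a fold over 2 gave 2 and 0. Leaving out each sample in turn gave 4 to 11 higher and 1 to 3 lower. The lowest counts of higher genes came without wild-type pituitaries 3 (5), 4 (4) and 5 (4), and the 3 lower genes came without wild-type pituitary 5. The median difference stayed between 0.02 (adenomas of 7 or 8 months) and 0.34 (replicate block). Of the 9 calls, those of Dhcr7, Srebf2, Stard4 and Abcg1 held in every fit that left out 1 sample, none held under every alternative, and 18 of the 25 genes not called were called under no alternative.

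With the replicate number of the titles as a block, 9 genes were higher and 0 lower. This fit kept lesions as separate samples. Only labels 1 to 5 are shared by the groups, and in adenomas these are lesions of adenomas 1, 2 and 3. Label 5 is the lesion that stood apart. The deviations of same-numbered samples correlated between −0.053 and 0.203, so the samples share only a number. By Spearman's rho 1 relation with the macrophage markers passed the adjustment, against 0 by Pearson's r. The causes of these changes were not tested, and 5 wild-type pituitaries, 2 of them female, limit every comparison here.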
